A study of Mus musculus with 45 samples.

Results

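Neurexins, neuroligins and leucine-rich repeat transmembrane (Lrrtm) proteins were followed in mouse hippocampal primary neurons through episodes of action potential (AP) firing that were left alone or cut short. The genes described are those whose Ensembl identifiers in the count table belong to the mouse symbols Nrxn2, Nrxn3, Nlgn1, Nlgn2, Nlgn3, Lrrtm1, Lrrtm2, Lrrtm3 and Lrrtm4, which makes 9 of 54532 genes in the table. They were chosen by name, and all 9 had reads in every library and were tested in every comparison.

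Neurexins sit in the presynaptic membrane, where their extracellular domains reach across the cleft to several families of postsynaptic partners. Neuroligins and Lrrtm proteins are such partners, and both bind scaffold proteins inside the postsynaptic neuron. Nlgn1 is known from excitatory synapses and Nlgn2 from inhibitory synapses, Nlgn3 is found at both, and Lrrtm proteins organize excitatory synapses and hold AMPA receptors in place. Lrrtm3 and Lrrtm4 also bind heparan sulfate chains of glypicans and syndecans.

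The cultures were made from newborn C57BL/6N mice, received cytosine arabinoside at day in vitro (DIV) 3 and serum from rat at 1% in their medium, and were treated at DIV 10 or 11 by the labels. In all, 9 conditions had 5 libraries each, 1 per culture preparation, and the preparations carried the numbers 1, 3, 6, 7 and 8. Control neurons were untreated. Bicuculline (Bic, 50 µM), which blocks GABA type A receptors and so drives AP firing, was given for 0.5, 1 or 2 h. In the short protocol (SP), 0.5 h of Bic was followed by 0.5 h of Bic with tetrodotoxin (TTX, 1 µM), the sodium channel blocker that ends AP firing, or with TTX and NMDA (30 µM, written TTX/NMDA). In the long protocol (LP), both phases lasted 1 h, the first in Bic and the second in Bic with TTX, with TTX/NMDA or with TBOA (50 µM), a blocker of glutamate uptake that lets synaptic glutamate spill over. TTX against uninterrupted Bic of the same total time is called the passive effect, TTX/NMDA against TTX the active effect, TTX/NMDA against Bic the total effect, and TBOA against 2 h Bic glutamate spillover.

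Levels are given as CPM, counts scaled to a common library size with normalization by the trimmed mean of M-values (TMM), and differences as log2 fold changes (log2FC) ± SE. A gene was called changed when the p-value of edgeR's quasi-likelihood test was under 0.05 after Benjamini-Hochberg adjustment over every gene detected with 1 read or more in the compared libraries. Library totals ran from 11316580 to 81129276 counts, and the members had between 186 and 68619 reads in a library. The firing response itself was present, with log2FC values after 2 h Bic of 5.54 for Npas4 and 5.39 for Fos, both activity-induced transcription factor genes. Each preparation is a mixed culture, and all 6 neuron markers, all 3 interneuron markers and all 6 astrocyte markers had a mean of at least 1 CPM, as did 4 of 5 oligodendrocyte lineage, 2 of 5 microglia and 0 of 2 endothelial markers. In RNA from such cultures, fewer cells of a type and less RNA per cell cannot be told apart.

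Positions are from GRCm38. Nrxn2 (ENSMUSG00000033768) lies at chr19:6418731-6544169 on the plus strand, and Nrxn3 (ENSMUSG00000066392) spans 1612060 bases of chromosome 12. Nlgn1 (ENSMUSG00000063887) spans 906246 bases of chromosome 3, Nlgn2 (ENSMUSG00000051790) only 14663 bases of chromosome 11, and Nlgn3 (ENSMUSG00000031302) lies at chrX:101299168-101325963. Each of Lrrtm1 (ENSMUSG00000060780, chromosome 6), Lrrtm2 (ENSMUSG00000071862) and Lrrtm3 (ENSMUSG00000042846, chromosome 10) sits inside an alpha-catenin gene on the opposite strand, namely Ctnna2, Ctnna1 and Ctnna3. Lrrtm4 (ENSMUSG00000052581) covers 791267 bases of chromosome 6 at chr6:80018877-80810143. Nlgn3 shares 41.2% of its exon bases with Gm21986 on the same strand, and reads over both genes were not counted by the authors, so the Nlgn3 counts leave out an unknown number of reads. Gm21986 itself had at most 31 reads in a library. Overlaps of Lrrtm4 with Gm4409 (25.1% of Lrrtm4 exon bases) and of Nlgn1 with A830092H15Rik (9.16%) are on opposite strands, which the counting kept apart.

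RefSeq start-site windows of GRCm38.p6, from 250 bases before to 50 bases after the start, were matched for 6 of the 9 genes, with 10 windows in all. Those of the most firing-responsive Lrrtm gene with a window (Lrrtm1), of the neuroligin that NMDA lowered most (Nlgn1, the more upstream of its windows) and of the neuroligin with the highest level (Nlgn2) are shown, with capitals for a match to a searched motif.
Lrrtm1 window (chr6:77242227-77242526, plus strand): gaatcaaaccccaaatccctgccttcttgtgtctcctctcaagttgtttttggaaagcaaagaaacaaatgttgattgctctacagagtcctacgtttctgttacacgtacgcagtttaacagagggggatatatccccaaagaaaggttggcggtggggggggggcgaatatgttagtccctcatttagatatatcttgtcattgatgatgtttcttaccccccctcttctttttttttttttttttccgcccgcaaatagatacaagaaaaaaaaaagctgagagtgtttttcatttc
Nlgn1 window (chr3:26331860-26332159, minus strand): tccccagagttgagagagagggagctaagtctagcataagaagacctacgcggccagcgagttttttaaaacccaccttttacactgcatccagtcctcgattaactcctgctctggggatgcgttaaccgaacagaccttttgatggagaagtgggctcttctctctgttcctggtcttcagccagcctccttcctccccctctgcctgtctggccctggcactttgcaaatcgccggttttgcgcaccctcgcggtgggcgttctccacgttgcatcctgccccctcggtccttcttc
Nlgn2 window (chr11:69837735-69838034, minus strand): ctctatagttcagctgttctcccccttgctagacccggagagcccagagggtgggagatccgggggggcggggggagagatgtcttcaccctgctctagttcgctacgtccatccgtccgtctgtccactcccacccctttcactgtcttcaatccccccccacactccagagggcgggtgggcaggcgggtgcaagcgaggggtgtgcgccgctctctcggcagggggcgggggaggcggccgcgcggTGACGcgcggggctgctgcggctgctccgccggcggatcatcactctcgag
Both strands were searched for the cyclic AMP response element TGACGTCA, its core TGACG, which lies inside the full element, the AP-1 motif TGANTCA, the CArG box and the MEF2 motif, which can overlap in AT-rich sequence. The capitals in the Nlgn2 window are TGACG, which begins 1 base before the start, and 20.8% of all 32851 mouse windows hold this core. A window of Nrxn3 held an AP-1 motif, as did 7.81% of all windows. No other member window matched any of the motifs, which were present in 1.79% (full element), 1.63% (CArG box) and 3.19% (MEF2) of all windows. These are matches of letters and not measured binding sites.

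Per kilobase of exon, levels in the control neurons fell into an order with several ties. Nlgn2 was highest at 65.9 ± 8.61 RPKM (normalized CPM per kilobase of exon; SD, n = 5), and Nrxn2 followed at 61.2 ± 6.38, within the spread of Nlgn2. Lrrtm1 had 34.6 ± 1.85 RPKM and Nrxn3 had 17.7 (range 16.6 to 18.9), each separate from its neighbours in all libraries. Lrrtm2 at 12.8 ± 1.55 and Nlgn1 at 10.6 ± 0.485 overlapped by a little, since the lowest Lrrtm2 library had 11.1 and the highest Nlgn1 library 11.2. Nlgn3 was at 7.25 ± 0.604, with the limit on its counts given above. Lrrtm4 (4.11 ± 0.245) and Lrrtm3 (4.01 ± 0.480) were lowest and overlapped.

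**Figure D1:**
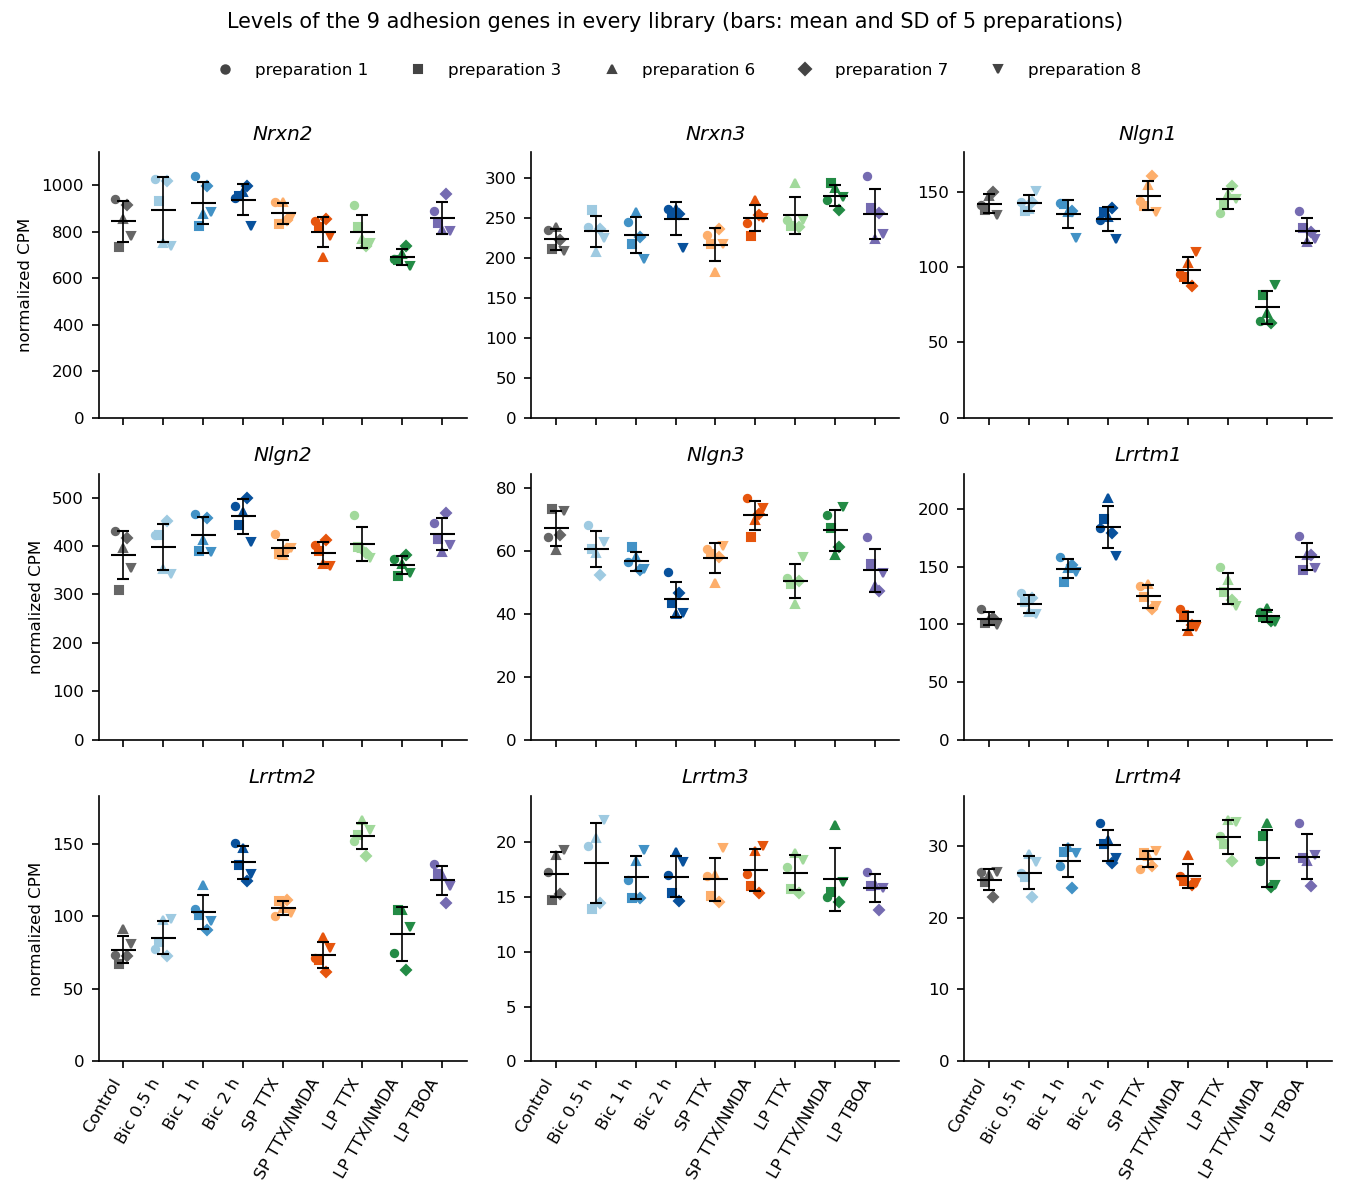
Normalized CPM (vertical axes, each from 0) of the 9 genes in the 45 libraries by condition (horizontal axis), with 1 symbol per culture preparation and bars for the mean and SD of 5 libraries. Lrrtm1 and Lrrtm2 climb through the Bic series, Nlgn3 declines through it, Nlgn1 is lowest in both TTX/NMDA conditions, and Lrrtm3 stays between 13.8 and 22.04 CPM throughout.

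Firing changed few of these genes at first and more with time. After 0.5 h Bic, 0 of 9 members were called by edgeR (0.289% of all genes tested were called), and DESeq2 also called 0. Lrrtm1 was the 1 member with an unadjusted p-value under 0.05 (p = 0.0459 from edgeR's model across all genes, not an exact test), with a log2FC of 0.17 ± 0.08, higher in 5 of 5 preparations. After 1 h, 2 of 9 were called, both of them higher, against 1.16% of all genes (0.965% higher and 0.195% lower) and 2.39% of the 13592 genes with a mean of at least 1 CPM: Lrrtm1 (log2FC 0.49 ± 0.08) and Lrrtm2 (0.42 ± 0.09). A fit with the culture preparation as a block was run together with edgeR's stricter low-count filter, filterByExpr, and values given with the block include that filter. With the block, Nlgn3 was called as well, with a log2FC of -0.24 (adjusted p = 0.0371, against 0.199 with neither and 0.140 with the filter alone). After 2 h, 3 of 9 were called against 9.02% of all genes (4.24% higher and 4.78% lower) and 18.6% of those with a mean of at least 1 CPM. Lrrtm1 (0.81 ± 0.08) and Lrrtm2 (0.82 ± 0.08) were higher and Nlgn3 (-0.60 ± 0.08) was lower. With the block, 6 were called after 2 h, the additional ones being Nlgn2 (adjusted p = 0.00369, against 0.0509 with neither and 0.0511 with the filter alone), Lrrtm4 (0.00684, against 0.0623 and 0.0263) and Nrxn3 (0.0465, against 0.318 and 0.143), all higher. Lrrtm4 was thus called with the filter alone.

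Ending AP firing with TTX alone led to fewer called members than the addition of NMDA, as it did among all genes. For the SP passive effect 0 of 9 were called by edgeR (0.268% of all genes, 0.0157% higher and 0.252% lower, and 0.544% of those with a mean of at least 1 CPM), and Lrrtm1 was the 1 member with an unadjusted p-value under 0.05 and the 1 called by DESeq2. For the LP passive effect 2 of 9 were called (4.65% of all genes, 3.03% higher and 1.62% lower, and 10.4% of those with a mean of at least 1 CPM), Lrrtm1 (-0.51 ± 0.07) and Nrxn2 (-0.24 ± 0.07), both lower. With the block that count was 6, with Nlgn1 (adjusted p = 0.0304), Nlgn3 (0.0431) and Lrrtm2 (0.00622) slightly higher and Nlgn2 (0.00142) lower, each by 0.12 to 0.21 on the log2 scale. In contrast, the SP active effect held 4 called members (4.28% of all genes, 0.956% higher and 3.32% lower, and 9.54% of those with a mean of at least 1 CPM): Nlgn1, Lrrtm1 and Lrrtm2 were lower and Nlgn3 was higher. The LP active effect held 5 (23.3% of all genes, 11.6% higher and 11.8% lower, and 46.9% of those with a mean of at least 1 CPM), with Nrxn2 lower in addition. With the block, Nlgn2 and Nrxn3 also passed for the LP active effect.

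**Figure D2:**
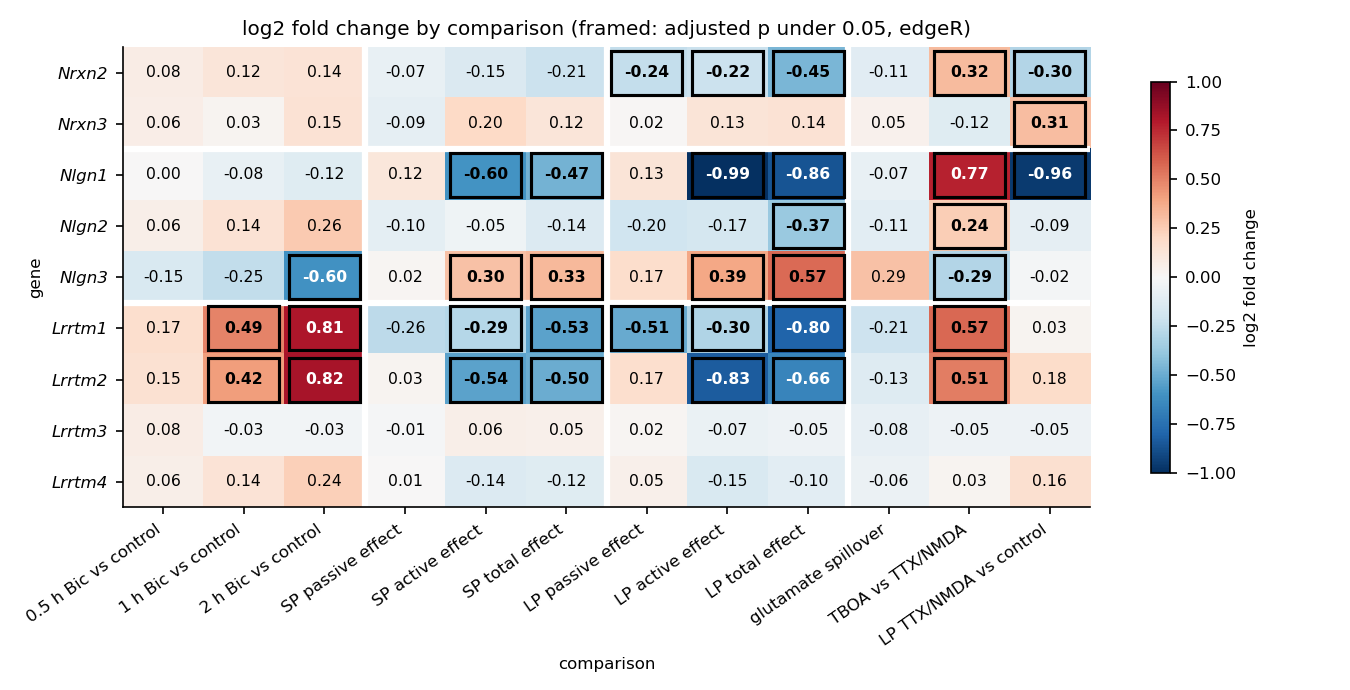
log2 fold changes (color, and the printed value) of the 9 genes (rows) in the 12 comparisons between conditions (columns), framed where edgeR's adjusted p-value was under 0.05. The Lrrtm1 and Lrrtm2 rows turn from higher under Bic to lower under TTX/NMDA, the framed cells of the Nlgn3 row for Bic and for TTX/NMDA have the opposite signs, and the Lrrtm3 and Lrrtm4 rows hold no frame.

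For the total effects, 4 members were called in the SP (4.3% of all genes, 0.891% higher and 3.41% lower, and 9.38% of those with a mean of at least 1 CPM) and 6 in the LP (22.8% of all genes, 11.7% higher and 11.1% lower, and 45.3% of those with a mean of at least 1 CPM). With the block, Nrxn2 (adjusted p = 0.00463) and Nlgn2 (0.0270) were also called in the SP. Nrxn3 was also called in the LP with the block (0.0132), and it was called with the filter alone (0.0360) and with library totals in place of TMM. Glutamate spillover called 0 of 9 by edgeR (0.602% of all genes, 0.0536% higher and 0.549% lower, and 1.37% of those with a mean of at least 1 CPM), with an unadjusted p-value under 0.05 for Nlgn3 and Lrrtm1 and no call by DESeq2. TBOA and TTX/NMDA, given for the same time in the LP, differed for 6 of 9 members (16.6% of all genes, 7.99% higher and 8.6% lower, and 33.4% of those with a mean of at least 1 CPM). Against untreated neurons, LP TTX/NMDA left 3 of 9 changed (19.5% of all genes, 10.9% higher and 8.55% lower, and 36.8% of those with a mean of at least 1 CPM): Nlgn1 and Nrxn2 were lower, and Nrxn3 was higher. These comparisons share libraries, so they are not independent of each other.

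The scaling matters for the LP comparisons with NMDA. With library totals in place of TMM, the median log2FC of all genes moved from 0.11 to 0.26 for the LP active effect and from 0.11 to 0.30 for the LP total effect. For TBOA against TTX/NMDA the median moved from -0.07 to -0.21. Under that scaling, Nrxn2 (log2FC -0.04) and Lrrtm1 (-0.12) lost their calls for the LP active effect and Nrxn3 (0.30) gained a call, while the directions of Nlgn1 (-0.82), Lrrtm2 (-0.66) and Nlgn3 (0.57) held with their calls. In the SP active effect, the same scaling took the call from Lrrtm1 (adjusted p = 0.0742) and gave a call to Nrxn3 (0.0230). Levels of cell type markers also moved. The sum of the 6 astrocyte markers was 389 to 780 CPM in LP TTX and 727 to 1418 CPM in LP TTX/NMDA, with all 6 called higher, and 4 of 5 oligodendrocyte lineage markers were called higher, with sums of 65.3 to 122 and 131 to 255 CPM. The 6 neuron markers together went from 6312 to 6790 CPM to 4993 to 5549 CPM, and 3 of them were called lower. Of the microglia markers 1 of 5 was called higher, and of the endothelial markers 0 of 2. Sox10 of the oligodendrocyte list never exceeded 0.348 CPM, the endothelial marker Cldn5 had a median of 0, and the part of these shifts in the members' values was not tested.

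Of the presynaptic neurexins, Nrxn2 fell in the LP when firing was stopped and fell further with NMDA, while neither step was called in the SP. Its LP TTX libraries had 915.0, 820.5, 770.5, 740.4 and 753.1 CPM (preparations 1, 3, 6, 7 and 8), against 945.0, 954.0, 972.0, 998.7 and 822.8 CPM after 2 h Bic. The LP TTX/NMDA libraries had 684.1, 679.0, 705.4, 738.3 and 650.7 CPM, all below every library of the other 2 conditions. The LP total log2FC was -0.45 ± 0.07 (adjusted p = 4.80e-06), lower in 5 of 5 preparations. The LP passive call (adjusted p = 0.0290) was lost without preparation 3, 6 or 7 (adjusted p = 0.0650, 0.118 and 0.241) and in a fit of all 45 libraries (0.118), and the LP active call (-0.22 ± 0.07, adjusted p = 0.0190) without preparation 1 or 3 (0.106 and 0.0891). TBOA libraries lay at 801 to 964 CPM, above all LP TTX/NMDA libraries (log2FC 0.32 ± 0.07, adjusted p = 0.00170). Against untreated neurons the LP TTX/NMDA log2FC was -0.30 ± 0.09, a call that was lost without preparation 1 (adjusted p = 0.0782) and with library totals (0.0621).

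Nrxn3 was higher in LP TTX/NMDA than in untreated neurons. Its control libraries had 235.0, 211.1, 238.03, 222.3 and 208.8 CPM, and its LP TTX/NMDA libraries had 272.2, 293.9, 287.0, 259.5 and 275.5 CPM. The groups did not overlap, and the log2FC was 0.31 ± 0.08 (adjusted p = 0.00463, higher in 5 of 5 preparations). Neither the active (0.13 ± 0.07, adjusted p = 0.202) nor the total effect (0.14 ± 0.07, adjusted p = 0.147) in the LP was called, while with the block the adjusted p-values were 0.00758 and 0.0132, and with the filter alone 0.0716 and 0.0360. With library totals both effects were called. The 3 interneuron markers, which mark GABA-releasing neurons, summed to 1134 to 1690 CPM in the control and 1565 to 2302 CPM in LP TTX/NMDA, and all 3 were called higher. Across the 45 libraries, with preparation means removed, the genes most like Nrxn3 were Erbb4 (Pearson r = 0.91), a neuregulin receptor gene, and Gad2 (r = 0.89), a GABA synthesis gene and 1 of those 3 markers. The part of the marker levels in the Nrxn3 values was not tested.

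Nlgn1, the neuroligin of excitatory synapses, fell with NMDA in both protocols. It had 140.8, 137.5, 147.2, 150.01 and 134.5 CPM in the control and 130.9, 136.6, 133.0, 139.2 and 118.7 CPM after 2 h (log2FC -0.12 ± 0.07, adjusted p = 0.415), lower in 5 of 5 preparations and called only with library totals (-0.21, adjusted p = 0.0407). TTX alone gave 136.0, 141.4, 148.4, 153.7 and 145.0 CPM in the LP. TTX/NMDA gave 64.3, 81.5, 69.2, 63.0 and 88.0 CPM, below all libraries of the other LP conditions and of the control.

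The LP active effect on Nlgn1 was -0.99 ± 0.08 (adjusted p = 7.87e-11), or -49.8%, and it was called under all 11 alternative settings. In the SP, TTX libraries had 137 to 160 CPM and TTX/NMDA libraries 87.7 to 110 CPM, with no overlap and a log2FC of -0.60 ± 0.07 (adjusted p = 3.27e-07). The difference between the LP and SP active effects was -0.38 ± 0.11 (adjusted p = 0.0473; 2.57% of all genes were called in this test, 0.722% higher and 1.85% lower, and 6.09% of those with a mean of at least 1 CPM). Leaving out preparation 1, 3, 6 or 7 took that adjusted p-value to 0.155, 0.0543, 0.155 and 0.0721. With the block it was 0.00852, and with library totals 0.161. The corresponding tests called 0 of 9 members for the passive effect (0.256% of all genes, 0.187% higher and 0.0699% lower) and 0 of 9 for the total effect (1.5% of all genes, 0.42% higher and 1.08% lower) by edgeR. Unadjusted p-values under 0.05 were found for 1 member (Lrrtm1) in the first and 5 in the second, and DESeq2 called 0 and 1 (Nlgn1). For the total effect, Nlgn1 had an adjusted p-value of 0.0628, and with the block 4 members were called: Nlgn1 (0.0205), Nlgn2 (0.0131), Nlgn3 (0.0399) and Lrrtm1 (0.0320).

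For TBOA, no difference in Nlgn1 was called, with 116 to 137 CPM against 119 to 139 CPM after 2 h Bic (log2FC -0.07 ± 0.06, adjusted p = 0.670). TBOA libraries were all above the LP TTX/NMDA libraries (0.77 ± 0.08, adjusted p = 5.44e-09). The gene on the other strand at the Nlgn1 start, A830092H15Rik, also fell with NMDA in the LP (log2FC -1.19, adjusted p = 1.04e-05), at levels of 1.95 to 3.43 CPM in LP TTX and 1.05 to 1.58 CPM in LP TTX/NMDA.

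Nlgn2, the neuroligin of inhibitory synapses, moved within a narrow range, from a mean of 360 CPM in LP TTX/NMDA to 461 CPM after 2 h Bic. The 2 h Bic libraries had 483.6, 443.6, 470.3, 499.2 and 408.1 CPM, and the LP TTX/NMDA libraries had 373.0, 338.6, 362.9, 382.2 and 343.3 CPM. The groups did not overlap, and the LP total log2FC was -0.37 ± 0.07 (adjusted p = 1.15e-04). Neither step alone was called in edgeR's main fit, with -0.20 ± 0.07 for the passive effect (adjusted p = 0.0838, and 0.00142 with the block) and -0.17 ± 0.07 for the active effect (0.0694, and 0.0180 with the block). The passive effect was called by DESeq2 and without preparation 1 or 8, and the active effect without preparation 7. TBOA libraries (388 to 469 CPM) were above the LP TTX/NMDA libraries by 0.24 ± 0.07 (adjusted p = 0.0172), a call that was lost without preparation 1 or 3 (0.0573 and 0.0790) and with library totals (0.286).

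Nlgn3 was the 1 member that fell with firing and came back with NMDA. Control libraries had 64.6, 73.3, 60.3, 65.1 and 72.7 CPM. After 2 h Bic the values were 53.4, 43.3, 39.96, 46.6 and 40.1 CPM, below every control library (log2FC -0.60 ± 0.08, adjusted p = 1.83e-06). The means were 60.7 CPM after 0.5 h and 56.7 CPM after 1 h, where no difference was called (adjusted p = 0.844 and 0.199, and 0.0371 at 1 h with the block).

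LP TTX left Nlgn3 at 51.5, 49.4, 43.2, 50.3 and 58.1 CPM, which overlapped the 2 h Bic values and was called slightly higher only with the block. LP TTX/NMDA gave 71.6, 67.2, 58.8, 61.1 and 74.0 CPM, all above LP TTX, with an active effect of 0.39 ± 0.08 (adjusted p = 3.52e-04) and a total effect of 0.57 ± 0.08 (1.43e-06). These libraries covered the range of the untreated controls (log2FC -0.02 ± 0.09, adjusted p = 0.918). The SP had the same direction, with an active effect of 0.30 ± 0.07 (adjusted p = 0.00999). With TBOA, Nlgn3 had a log2FC of 0.29 ± 0.08 against 2 h Bic, higher in 5 of 5 preparations and not called (adjusted p = 0.0915). It was called with the block (0.0170), with library totals (0.0485) and without preparation 7 (0.0349) or 8 (0.0208). All Nlgn3 values rest on the reads outside the exon bases it shares with Gm21986.

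Lrrtm1 rose under Bic and fell under both TTX and TTX/NMDA in the LP. The libraries rose from 113.8, 101.4, 104.2, 106.0 and 99.2 CPM in the control to 158.7, 136.5, 148.9, 151.7 and 145.6 CPM after 1 h Bic and to 183.8, 191.9, 209.9, 179.7 and 159.8 CPM after 2 h. All libraries of each later time lay above all of the earlier one. The increase was 40.9% after 1 h (adjusted p = 2.61e-05) and 75.0% after 2 h (7.54e-10). TTX in the LP brought Lrrtm1 down to 150.2, 128.1, 139.0, 121.6 and 116.4 CPM (log2FC -0.51 ± 0.07, adjusted p = 1.35e-05), and adding NMDA brought it to 110.8, 106.2, 114.7, 102.7 and 101.7 CPM (-0.30 ± 0.07, adjusted p = 0.00200). The last values are those of the untreated controls within their spread (0.03 ± 0.08, adjusted p = 0.856).

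In the SP the Lrrtm1 levels were 113 to 136 CPM with TTX and 94.4 to 113 CPM with TTX/NMDA, where both groups lay below all 1 h Bic libraries. The passive effect was -0.26 ± 0.07 (adjusted p = 0.154) and the active effect was -0.29 ± 0.07 (0.0104, and 0.0756 without preparation 6). TBOA in the LP left Lrrtm1 at 147 to 177 CPM, lower than 2 h Bic in 5 of 5 preparations but not called (-0.21 ± 0.07, adjusted p = 0.212, and 0.0350 without preparation 8). Compared with LP TTX/NMDA it was higher by 0.57 ± 0.07 (adjusted p = 1.57e-07).

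Lrrtm2 rose with Bic by 76.6% after 2 h and was not called lower with TTX. It had 73.5, 66.9, 91.2, 72.6 and 80.9 CPM in the control and 150.5, 135.2, 147.0, 124.7 and 129.1 CPM after 2 h Bic (adjusted p = 2.69e-09). LP TTX libraries stood at 152.3, 156.4, 166.7, 141.9 and 159.3 CPM, higher than 2 h Bic in 5 of 5 preparations (log2FC 0.17 ± 0.06, adjusted p = 0.148, and 0.00622 with the block). NMDA then took the level to 74.5, 104.4, 104.7, 62.7 and 93.0 CPM, an active effect of -0.83 ± 0.10 (adjusted p = 8.93e-08), or -43.8%. The SP active effect was -0.54 ± 0.07 (adjusted p = 5.99e-06), with 100.02 to 111 CPM in TTX and 61.3 to 85.7 CPM in TTX/NMDA. Under TBOA the libraries had 109 to 136 CPM (spillover log2FC -0.13 ± 0.06, adjusted p = 0.648). The mean level over conditions was highest in LP TTX and lowest in SP TTX/NMDA, with a ratio of 2.12, the widest of the 9 members.

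Lrrtm3 and Lrrtm4 were not called in any of the 12 comparisons between conditions. Lrrtm3 means ran from 15.8 CPM (LP TBOA) to 18.1 CPM (0.5 h Bic), a ratio of 1.14, and the range of log2FC values was -0.08 to 0.08. Lrrtm4 was not called under Bic either, with 26.4, 24.9, 25.97, 22.8 and 26.4 CPM in the control and 33.2, 30.3, 30.8, 27.7 and 28.4 CPM after 2 h. Those groups did not overlap, the log2FC was 0.24 ± 0.08, and the adjusted p-value was 0.0623, or 0.0263 with the filter alone and 0.00684 with the block and the filter. LP TTX/NMDA libraries of Lrrtm4 had 24.3 to 33.2 CPM and overlapped both.

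**Figure D3:**
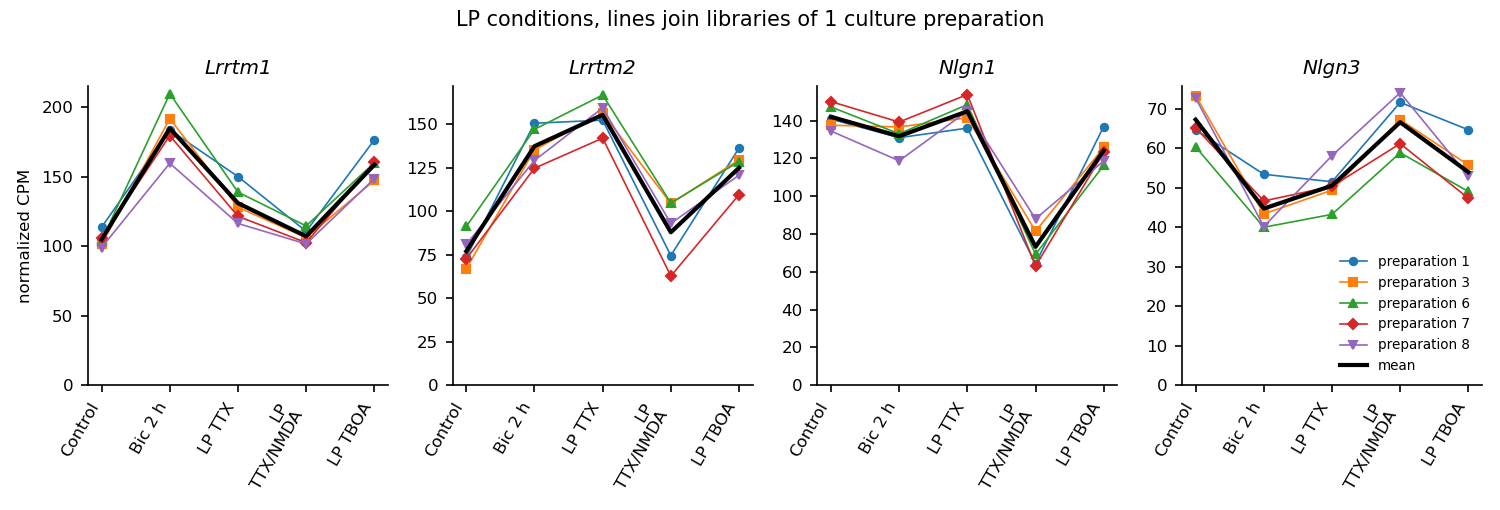
Normalized CPM (vertical axes from 0) of Lrrtm1, Lrrtm2, Nlgn1 and Nlgn3 in the control and the 4 conditions of 2 h total treatment (horizontal axis), with 1 thin line per culture preparation and the mean in black. From 2 h Bic to LP TTX the Lrrtm1 lines all go down and the Lrrtm2 lines all go up, and from LP TTX to LP TTX/NMDA the Nlgn1 lines all go down and the Nlgn3 lines all go up.

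Shares within a family do not depend on the scaling between libraries, and they separate members that moved unequally. Each share is the percentage of a gene in the summed reads per kilobase of the listed members of its family in a library. Differences were tested by exact two-sided permutation of 5 against 5 libraries, adjusted by Benjamini-Hochberg over 45 tests of 5 comparisons. The smallest p-value this design allows is 0.00794, and 28 of 45 shares changed at an adjusted p-value under 0.05. With any 1 preparation left out, 0 of 45 passed, with a smallest adjusted p-value of 0.0514 to 0.0643 in the exact tests of 4 against 4 libraries. No p-value of those tests can go under 0.0286, which limits the adjusted values they can reach. Since the shares of a family sum to 100%, a change in 1 member moves the others.

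Lrrtm1 held 65.8% ± 1.97 (SD, n = 5) of the Lrrtm reads after 2 h Bic and 55.2% ± 2.65 with LP TTX, while Lrrtm2 went from 24.6% ± 1.32 to 33.1% ± 1.96 (exact p = 0.00794 and adjusted p = 0.0188 for each). With NMDA, Lrrtm2 went back to 24.8% ± 3.61 (adjusted p = 0.0188 against LP TTX) and Lrrtm1 to 60.7% ± 3.85 (0.0383). Lrrtm3 and Lrrtm4, which were not called by level, went from 7.22% to 4.29% and from 7.42% to 5.29% after 2 h Bic (adjusted p = 0.0188 for each), while the levels of Lrrtm1 and Lrrtm2 rose.

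Among the neuroligins, Nlgn2 made up 78.5% ± 2.54 in the control and 84.5% ± 0.525 after 2 h Bic, while Nlgn3 went from 8.78% ± 1.61 to 5.11% ± 0.468 and Nlgn1 from 12.7% ± 1.05 to 10.4% ± 0.473 (adjusted p = 0.0188 for each). In LP TTX/NMDA the order of the minor members by mean share, as computed over full exon lengths, was the other way round. Nlgn1 had 7.31% ± 1.28 there and Nlgn3 had 9.60% ± 1.02, against 12.6% ± 1.22 and 6.35% ± 0.818 in LP TTX (adjusted p = 0.0188 for each). The Nlgn3 shares leave out reads over the 41.2% of its exon bases shared with Gm21986. The order of Nlgn1 and Nlgn3 within a condition is therefore not settled. Of the reads of Nrxn2 and Nrxn3 together, Nrxn3 held 22.5% ± 0.563 after 2 h Bic, 25.8% ± 2.51 in LP TTX and 30.6% ± 1.70 in LP TTX/NMDA (total effect adjusted p = 0.0188). Under TBOA, the Nlgn3 share of 6.59% ± 0.754 was the 1 share of 9 that changed against 2 h Bic (adjusted p = 0.0275), and it was higher in 5 of 5 preparations.

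**Figure D4:**
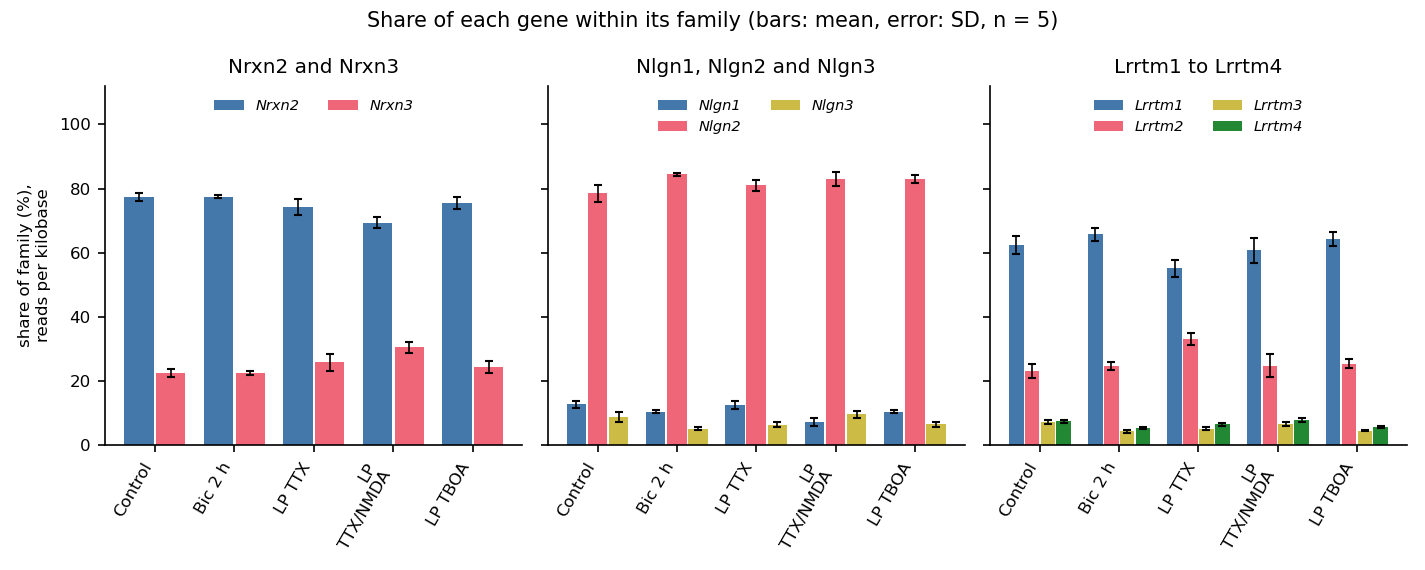
Share of each gene (bars: mean, error bars: SD, n = 5 libraries) in the reads per kilobase of the members of its family (vertical axis, percent) in the control and the conditions of 2 h total treatment (horizontal axis). The Lrrtm2 share is highest in LP TTX at 33.1%, and of the plotted conditions LP TTX/NMDA is the one where the mean Nlgn1 share is below the mean Nlgn3 share. Nlgn3 shares use its full exon length and leave out reads over the bases it shares with Gm21986.

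In lists of known partners and related adhesion genes, more genes were called lower than higher for the LP total effect, except in the glypican and syndecan list and the alpha-catenin list. The counts are to be read against 22.8% of all genes called for this effect, and against 45.3% of the genes with a mean of at least 1 CPM, 20.2% higher and 25.1% lower, with a median log2FC of 0.0045. From 2 h Bic to LP TTX/NMDA, summed neuron markers went from 6212 to 6698 CPM to 4993 to 5549 CPM. Summed astrocyte markers went from 473 to 780 CPM to 727 to 1418 CPM. The part of these marker shifts in the list values was not tested. Of 16 other neurexin partners, 0 rose and 8 fell for the LP total effect (median log2FC -0.36, against 0.11 over all genes tested), among them the calsyntenin genes Clstn2 (-0.64) and Clstn1 (-0.59), the latrophilin gene Adgrl1 (-0.51) and the glutamate receptor delta gene Grid1 (-0.49). After 2 h Bic, 2 of the 16 rose and 0 fell (median 0.11), where 8.18% of the genes with a mean of at least 1 CPM were higher and 10.4% lower. Of 4 regulators of neuroligins, Mdga1, whose product binds neuroligins and keeps neurexins off them, fell by 1.42 on the log2 scale in the LP total effect (adjusted p = 2.47e-11), and the other three were not called.

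The 10 intracellular partners, scaffold and adaptor proteins, had 0 higher and 7 lower for the LP total effect (median -0.42), against the 25.1% lower among genes with a mean of at least 1 CPM. Among the genes that fell were Apba2 (-0.58) and Lin7a (-0.60) of the presynaptic adaptor complex and Dlg4 (-0.45), which encodes PSD-95. For the LP active effect all 10 were called, 9 of them lower, where 23.3% of all genes and 46.9% of those with a mean of at least 1 CPM were called, 26.9% lower. The 10 glypican and syndecan genes were divided, with 4 higher and 2 lower for the LP total effect (median 0.13). Sdc4 (0.86) and Sdc2 (0.47) were higher, and Sdc3 (-0.53) and Gpc1 (-0.29) were lower. After 2 h Bic, 0 of the intracellular partners and 2 of the glypican and syndecan genes were called, both of those higher.

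RNA-binding proteins that regulate neurexin splicing were divided too, with 2 of 8 higher and 3 lower for the LP total effect. Rbfox1 (-0.55), Rbfox2 (-0.33) and Khdrbs2 (-0.33) were lower, and Ptbp1 (0.27) was higher. Ptbp1 (0.98) and Khdrbs2 (0.64) were also the 2 of the 8 called after 2 h Bic. Gene counts do not resolve splice forms, so no statement on neurexin isoforms can be made from them.

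Of 17 other leucine-rich repeat adhesion genes, 0 were higher and 12 lower for the LP total effect (median -0.37), against 11.1% lower among all genes and 25.1% among those with a mean of at least 1 CPM. Lrfn5 (-0.77) and Slitrk3 (-0.64) fell, and Slitrk3 had also fallen after 2 h Bic (-0.35). Lrrc4 and Flrt3 rose after 2 h Bic (1.00 and 1.26) and fell in the LP total effect (-0.71 and -0.83), as Lrrtm1 and Lrrtm2 did. With TTX alone in the LP, Flrt3 fell by 0.61 and Lrrc4 was not called (-0.10, adjusted p = 0.516). In LP TTX/NMDA both stayed above untreated neurons (0.31 and 0.45, adjusted p = 0.00901 and 7.35e-04), where Lrrtm1 was not called. After 2 h Bic, 2 of the 17 rose and 4 fell, against 8.18% higher and 10.4% lower among genes with a mean of at least 1 CPM. Of 15 further trans-synaptic adhesion genes, 0 were higher and 8 lower for the LP total effect (median -0.35), where 45.3% of the genes with a mean of at least 1 CPM were called, 25.1% lower. Among the 8 were Cadm3 (-0.65), Ntng2 (-0.69), Tenm4 (-0.62) and Tenm3 (-0.57). After 2 h Bic, 1 of the 15 rose.

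The alpha-catenin genes around Lrrtm1 and Lrrtm2 were not called after 2 h Bic, where both Lrrtm genes rose, and for the LP total effect 1 of these hosts was called in the direction of its Lrrtm gene and 1 against it. Ctnna1, the host of Lrrtm2, had log2FC values of 0.27 after 2 h Bic (adjusted p = 0.112) and 0.63 for the LP total effect (2.54e-05), where Lrrtm2 fell by 0.66. Ctnna2, the host of Lrrtm1, had 0.15 after 2 h Bic (adjusted p = 0.291) and -0.34 for the LP total effect (1.37e-04), where Lrrtm1 also fell.

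The most similar genes differed between members. Over the 45 libraries, with preparation means removed and among 13592 genes, Nlgn1 was closest to the diacylglycerol kinase gene Dgkb (Pearson r = 0.99) and the potassium channel gene Kcnd2 (0.98). Lrrtm1 was closest to the somatostatin receptor gene Sstr1 (0.95) and to Nefl (0.93), Lrrtm2 to Armcx5 and Cdkn1b (0.96 each), and Nrxn2 to the scaffold genes Dlgap3 and Ppp1r9b (0.97 each). Nlgn2 reached 0.93 with Prrc2a, Nlgn3 paired with Gtf2a1 (0.92) and Ccdc90b (0.91), Lrrtm4 with Fbxw7 (0.82) and 1810013L24Rik (0.80), and Lrrtm3 reached only 0.58 with Grm8 and 0.53 with Cdh18. Among the members themselves, the highest value was 0.81, for Nlgn2 with Lrrtm1 and for Nlgn2 with Nrxn2, and the lowest was -0.85, for Nlgn3 with Lrrtm1. All these libraries share the same 9 conditions, so the values describe the shape of the response over conditions.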

How the data were processed

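RNA was measured in 45 libraries of mouse hippocampal cultures, 5 for each of 9 conditions. The authors made strand-specific poly-A libraries, sequenced them with single-end reads of 75 cycles, converted them with bcl2fastq 2.20.0.422, aligned them to GRCm38 with STAR 2.5.4b and counted reads per gene of Ensembl 94 with featureCounts 1.6.5, without multi-mapping reads and without reads shared by genes on the same strand. They deposited the raw counts of 54532 genes, which were used as deposited. Reads over same-strand overlaps are therefore missing from both genes, and poly-A selection with whole-gene counts cannot separate splice forms.

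Differences were tested with edgeR 4.0.16 (R 4.3.3, limma 3.58.1; TMM scaling, quasi-likelihood test) on the libraries of the compared conditions, over genes with at least 1 read, with Benjamini-Hochberg adjustment and a threshold of 0.05. Differences between protocols were tested as an interaction in the libraries of all conditions involved. Normalized CPM and RPKM were computed from the counts, exon lengths coming from GENCODE annotation of GRCm38. Log CPM for correlations used a prior count of 2. Family shares were tested with exact permutation (SciPy 1.17.1). The fit was tested on simulated data with known changes. Figures were drawn with matplotlib 3.10.9. Symbols were missing for 37 identifiers.

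The labels give a replicate number, and the authors define each culture preparation as 1 replicate, so the numbers are taken to pair the samples. Same-numbered libraries deviated together, with a mean correlation of 0.355 to 0.548 over 13592 genes in the 12 comparisons, single pairs ranging from -0.195 to 0.726. A blocked value is printed where it changes a call. No libraries were identical, and separate preparations are taken as independent cultures. Library totals ran from 11316580 to 81129276 counts. In the comparisons of Bic with the control, the SE was largest for Lrrtm3 (0.114, 0.102 and 0.0993 after 0.5, 1 and 2 h).

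The alternatives were DESeq2 size factors, library totals only, the filterByExpr filter, DESeq2 1.42.0, the block together with filterByExpr, a fit of all 45 libraries and each preparation left out. The members and lists were chosen with earlier results of these data known, and the lists of genes that overlap members or lie in their introns were drawn up from the annotation after the counts were seen. Named were all members, up to 4 genes of each other list with the smallest adjusted p for the LP total effect among those called, the 2 genes most correlated with each member, and check genes, except that 2 genes this rule names are not reported here.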

Additional observations from a re-analysis of the deposited data

Results flagged for a closer look

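In groups of 5 libraries, a library was singled out when its gap to the nearest other library, divided by the range, passed Dixon's critical value of 0.71. This happened in 5 of 81 groups, where chance alone gives about 1 in 20. Nrxn3 was lowest in preparation 8 after 2 h Bic, at 212.5 CPM against 254.2 to 260.7 CPM in the others, and highest in preparation 6 in LP TTX, at 293.4 CPM against 238.5 to 247.1 CPM. Nlgn1 had 119.1 CPM in preparation 8 after 1 h Bic, where the other libraries had 136.3 to 142.3 CPM. Nlgn2 had 463.3 CPM in preparation 1 in LP TTX, against 375.4 to 397.8 CPM. Lrrtm3 had 21.6 CPM in preparation 6 in LP TTX/NMDA, against 14.6 to 16.4 CPM.

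The active effect on Nlgn1 differed between the protocols by edgeR's interaction test, with an LP minus SP log2FC of -0.38 (adjusted p = 0.0473). The call was lost without preparation 1, 3, 6 or 7 (0.155, 0.0543, 0.155 and 0.0721) and with library totals (0.161).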

How the results depend on the processing

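Over the 11 alternatives, 1368 of 1485 single-gene values kept their direction and their side of the threshold, 20 lost a call, 46 gained a call and 51 changed sign. None of the 51 was called under either setting, and the cause of changed calls was not tested. After 2 h Bic, 3 members were called, against 5 with DESeq2 size factors, 5 by DESeq2, 6 with the replicate block and 5 in the fit of all 45 libraries, and 3 to 5 with a preparation left out. DESeq2 called 1 member for the SP passive effect. For the LP passive effect, 2 members were called, against 3 by DESeq2, 6 with the replicate block, 1 in the fit of all 45 libraries and 1 to 3 with a preparation left out. For glutamate spillover, 0 were called by edgeR, against 1 with library totals, 1 with the block and 0 to 2 with a preparation left out. For the LP minus SP active effect, 1 was called, against 0 with library totals and 0 to 1 with a preparation left out. For the LP minus SP total effect, 0 were called, against 1 by DESeq2, 4 with the block, 1 in the fit of all 45 libraries and 0 to 1 with a preparation left out. Of the family shares, 28 changed. An exact sign-flip test within preparations, the form of the block used for shares, left 0 and cannot go under p = 0.0625, so it cannot pass the threshold. With a preparation left out, the exact test left 0, with a smallest adjusted p of 0.0514 to 0.0643. Its smallest p of 0.0286 is the least that 4 against 4 libraries allow. The block was fitted together with filterByExpr. Apart from the values given in the report, that fit changed no call, and of the calls it added, filterByExpr alone also made those of Lrrtm4 (2 h Bic) and Nrxn3 (LP total effect). With library totals, the log2FC values that changed sign were Nlgn1 -0.0026 (0.5 h Bic vs control), Nrxn3 -0.0010 (1 h Bic vs control), Lrrtm3 0.00077 (SP passive effect), Nlgn2 0.025 (SP active effect), Nlgn2 0.0039, Lrrtm3 0.11 and Lrrtm4 0.022 (LP active effect), Lrrtm3 0.14 and Lrrtm4 0.089 (LP total effect), Lrrtm4 -0.11 (TBOA vs TTX/NMDA), Nlgn3 0.065 and Lrrtm3 0.031 (LP TTX/NMDA vs control), Nrxn2 0.035, Nrxn3 0.034 and Lrrtm4 0.087 (LP minus SP active effect), Lrrtm3 0.013 (LP minus SP total effect). The LP minus SP active effect on Lrrtm1 was -0.0042, -0.011, -0.0040, -0.010 and -0.012 with DESeq2 size factors, filterByExpr, DESeq2, the replicate block and all 45 libraries. With a preparation left out, values that changed sign ranged as follows, in log2FC: Nlgn1 -0.038 to 0.027 and Nlgn2 -0.024 to 0.12 (0.5 h Bic vs control), Lrrtm3 -0.039 to 0.00016 (2 h Bic vs control), Nrxn3 -0.13 to 0.028, Nlgn3 -0.015 to 0.096, Lrrtm2 -0.023 to 0.11, Lrrtm3 -0.024 to 0.030 and Lrrtm4 -0.023 to 0.043 (SP passive effect), Nrxn3 -0.023 to 0.053 (LP passive effect), Lrrtm3 -0.078 to 0.012 (LP total effect), Nrxn3 -0.0010 to 0.10 (glutamate spillover), Lrrtm3 -0.14 to 0.057 and Lrrtm4 -0.059 to 0.10 (TBOA vs TTX/NMDA), Nlgn3 -0.058 to 0.012 and Lrrtm1 -0.00036 to 0.047 (LP TTX/NMDA vs control), Nrxn3 -0.052 to 0.15, Nlgn1 -0.0071 to 0.022 and Lrrtm4 -0.011 to 0.069 (LP minus SP passive effect), Nrxn3 -0.15 to 0.073, Lrrtm1 -0.064 to 0.050 and Lrrtm4 -0.090 to 0.038 (LP minus SP active effect), Lrrtm4 -0.029 to 0.078 (LP minus SP total effect). Depth limits Lrrtm3 most, which had as few as 186 reads in a library.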

Other observations

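Apart from the miRNA gene Gm23989 in Nrxn3, the annotation places 11 further gene models on the same strand inside introns of members, 8 in Lrrtm4, 2 in Nrxn3 and 1 in Nlgn1. For the LP active effect, 9 of the 11 were called higher by edgeR (11.6% of all genes were), and for the LP total effect 7 were (11.7% of all genes). Their levels were low, and the 11 together had 15 to 52 reads in an LP TTX library and 53 to 221 in an LP TTX/NMDA library. In the gene models with the smallest adjusted p-values, Gm48700 inside Nrxn3 had a log2FC of 2.92 (adjusted p = 4.05e-07) and Gm44242 inside Lrrtm4 had 3.00 (adjusted p = 1.88e-06) for the LP active effect. Of the hosts, Nlgn1 fell in that comparison, while Nrxn3 (log2FC 0.13) and Lrrtm4 (-0.15) were not called. The list was drawn up after the counts were seen.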
